A study of Mus musculus with 32 samples.

Results

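The genes followed here encode secreted antagonists of Wnt signaling and 2 receptors that work with them. They were *Sost*, *Dkk1*, *Dkk3*, *Sfrp1*, *Sfrp2*, *Sfrp4*, *Frzb*, *Wif1*, *Kremen1* and *Lrp4*, taken by symbol as 10 of the 31053 genes in the deposited count tables, and each symbol occurred once. The cells were BMSC-OBs, bone marrow-derived stromal cells of Diversity Outbred (DO) mice that had been cultured for 10 days in osteogenic medium with ascorbic acid, β-glycerophosphate and dexamethasone. Cells of 77 outbred mice were combined into 16 pools of 4 or 5 mice, and each pool was a single droplet library sequenced in 2 runs, HGYVNCCX2 and HHFFMCCX2. All pools had the same treatment, so the comparisons are between cell types of the same pools, in run HGYVNCCX2, with the pool as the replicate. A pool mixes several genetically distinct mice, and cells were not assigned to mice here. Each mouse weighs in a gate by the cells it gave, and the paper reports highly variable cell-type proportions between mice. The part of unlike mixtures of mice in the differences between gates was not tested. Neither age nor sex of the mice in a pool is used here.

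Wnt proteins bind Frizzled receptors together with the co-receptors LRP5 and LRP6, and the signal stabilizes β-catenin, which raises bone formation. The antagonists act at the cell surface. Sclerostin (*Sost*), known as a product of osteocytes, and *Dkk1* bind LRP5 and LRP6, whereas the secreted Frizzled-related proteins (*Sfrp1*, *Sfrp2*, *Sfrp4* and *Frzb*, also called sFRP3) and *Wif1* bind Wnt ligands themselves. *Kremen1* is a receptor for Dkk proteins, and *Lrp4* is a receptor that binds sclerostin. *Dkk3* is a divergent member of the Dickkopf family whose role in Wnt signaling is less settled.

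Mesenchymal cell types were named from marker genes, none of which was a gene followed here. Of 107853 barcodes, 88909 passed the filters on genes and on mitochondrial and ribosomal counts and 5003 of these were removed as called doublets. In the remainder, 50153 cells carried stromal collagens, and 35138 of those had 1 mesenchymal marker score clear of all others. They were 8883 late mesenchymal progenitor-like (LMP) cells, 7548 marrow adipogenic lineage progenitor-like (MALP) cells, 6522 osteoblast progenitor-like (OBP) cells, 4713 and 4206 cells like the osteoblast groups OB1 and OB2, and 3266 osteocyte-like (Ocy) cells. The gates were made from these markers, so their levels describe the gates and do not test the names. *Adipoq* reached 15.2 unique molecular identifiers (UMIs) per 10000 in MALP and at most 0.133 in the other 5 gates, *Mepe* was at 18.3 in OB1, *Bnip3* at 11.9 in OB2 and *Dmp1* at 13.3 in Ocy. These gates are ranges of a score and not separate types, and between 4.31% (MALP) and 17.5% (OB1) of the cells inside a gate exceeded the required margin over the second score by less than 0.1. With the stromal cells that missed the margin by less than 0.1 and so had no gate, 827 cells lay that near to it for MALP and 1771 for OB1. Pools with at least 20 cells of a gate were used, which gave 16 pools for each gate except OB2, for which there were 14 because pools 1 and 2 had no such cells. Pool 13 had the lowest median, 2782 UMIs per kept cell, followed by pools 1 (3774) and 18 (5186), and pool 5 had the highest (15273). Pool 13 was left out in an alternative for the main gates, the shares of UMIs, the edgeR comparisons and the relations between pools, and not for the other values. The barcode lists of any 2 pools shared at most 28 barcodes. Doublets remained, since not all kept droplets with UMIs of both *Xist* and Y-linked genes were called. The called were 15 of 54 in pool 5, 54 of 120 in pool 6 and 39 of 66 in pool 8.

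A level is the number of UMIs of a gene per 10000 UMIs, summed over the cells of a gate in a pool. The orders of gates given below rest on this scaling by total UMIs. Free RNA in the droplets gives UMIs in cells that do not transcribe a gene, and macrophage-gated cells (10277 cells, 16 pools) gave a level to set the genes against, called background here. It was not shown to be free RNA alone. Macrophages were also shallower, with a median of 4840.5 UMIs per cell, against 9607 in MALP to 20580 in OBP. An equal number of free UMIs would therefore give macrophages a higher level, which was not corrected for. Statements below that a gene was near or under background rest on this level. *Sost* in macrophages came from few cells in some pools, with 49 UMIs in 2.31% of 216 cells in pool 4 and 120 UMIs in 2.19% of 775 cells in pool 18. It was spread more widely in others, with 71 UMIs in 12.0% of 415 cells in pool 13 and 77 in 5.39% of 760 in pool 6. The part of uncalled doublets was not tested. In macrophages the mean levels of the 10 genes were between 0.0131 (*Frzb*) and 0.153 (*Wif1*). The genes fell into 4 patterns across the gates. *Sost*, *Dkk1* and *Frzb* were highest in the osteoblast and osteocyte-like gates, *Dkk3*, *Sfrp2* and *Kremen1* in LMP, *Sfrp1* and *Sfrp4* in MALP, and *Wif1* was present in every mesenchymal gate with its highest level in OB2. *Lrp4* had means between 0.219 (OB2) and 0.344 (MALP), with overlapping pools in all 6 gates. For each gene, the gate of highest mean was compared with the second over the pools by an exact two-sided paired permutation test on log2(level + 0.01), with Benjamini-Hochberg adjustment over the 10 genes. The 2 gates were picked as the highest, which favors a difference. Of the 10 differences, 8 passed an adjusted p of 0.05, and those of *Sost* and *Lrp4* did not.

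**Figure D1:**
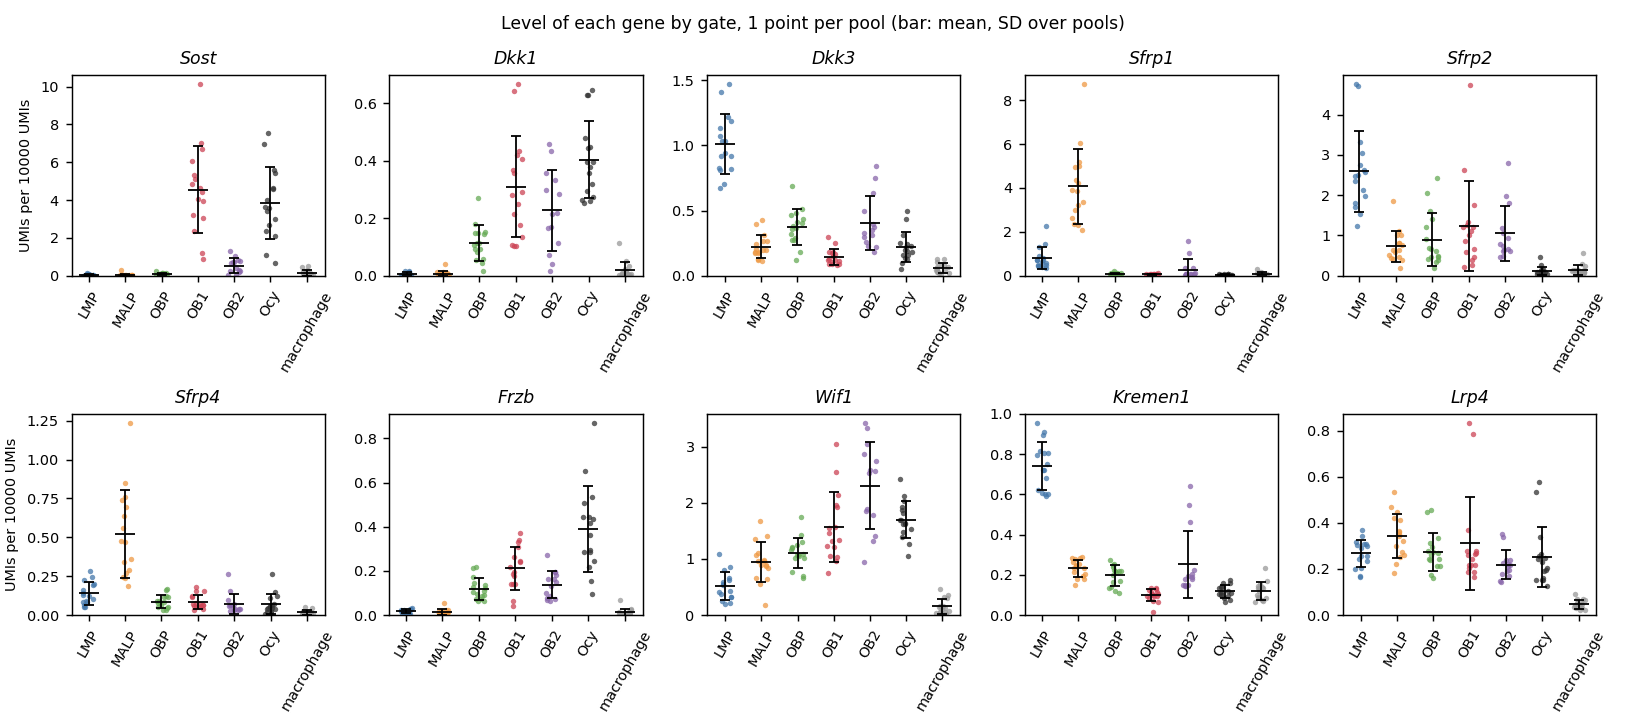
Levels of the 10 genes in UMIs per 10000 UMIs (vertical axes, a separate scale for each gene) by gate (horizontal axes), with 1 point for each pool and bars for the mean and SD over pools. *Sfrp1* and *Sfrp4* stand out in MALP, *Dkk3*, *Sfrp2* and *Kremen1* in LMP and *Sost* in OB1 and Ocy, whereas the *Lrp4* points of the mesenchymal gates overlap.

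*Sost* (ENSMUSG00000001494, chr11:101962458-101967015, minus strand, GRCm38, GENCODE M21), which encodes sclerostin, was found in OB1 and Ocy cells. Its level in OB1 ran from 0.873 in pool 10 over a median of 4.55 to 10.1 in pool 3, with a mean of 4.56 ± 2.31 (SD, n = 16 pools). In Ocy it ran from 0.684 in pool 2 over a median of 3.63 to 7.54 in pool 12, with a mean of 3.84 ± 1.92 (SD, n = 16). Both gates overlapped almost fully, and OB1 was the higher of the 2 in 10 of 16 pools. The mean paired difference of 0.25 ± 0.61 (SD) on the log2 scale did not pass the test (exact permutation, p = 0.12, adjusted p = 0.12), and its sign turned when cells were assigned by their whole profile instead of by markers (-0.11), so a single main source of *Sost* could not be named. OB1 was higher with a wider margin between scores (0.49, adjusted p = 0.0439), in the second run (0.36, adjusted p = 0.0195) and with levels scaled by trimmed mean of M values (TMM), an alternative chosen after seeing the data (0.40, adjusted p = 0.0286). OB2 cells had much less *Sost*, between 0.0476 and 1.31 with a mean of 0.540 ± 0.388 (SD, n = 14), and Ocy exceeded OB2 in 14 of 14 pools (adjusted p = 0.000555 over 50 neighbor pairs, exact permutation). In OBP, MALP and LMP the means were 0.0918, 0.0460 and 0.0437, against a mean of 0.144 ± 0.152 (SD, n = 16) and a median of 0.0815 in macrophages. LMP and MALP, with medians of 0.0343 and 0.0368, cannot be told from background by level. OBP had a median of 0.087 and exceeded MALP in 12 of 16 pools (adjusted p = 0.00865, exact permutation), and it was above the macrophages of its own pool in some pools (0.235 and 0.054 in pool 8) and below them in others (0.084 and 0.109 in pool 12). Each pool's OB1 level was above the highest OBP level of 0.235.

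Within both gates *Sost* varied with the second score, which is given as a description of groups chosen after values had been seen. OB1 cells whose second score was Ocy had 6.32 ± 2.61 (SD, n = 14 pools), 5.73 ± 2.19 (SD, n = 8) where it was OB2 and 3.10 ± 1.40 (SD, n = 14) where it was OBP. Ocy cells whose second score was OB1 had 5.87 ± 2.79 (SD, n = 15), 5.41 ± 3.66 (SD, n = 13) where it was OB2 and 1.18 ± 0.72 (SD, n = 14) where it was OBP. In both gates the lowest mean was that of the cells whose second score was OBP. The bases upstream of the *Sost* start were read for motifs together with those of *Dkk1* and *Sfrp2*, which stand for osteoblast- or osteocyte-high genes (*Sost*, *Dkk1*) and an LMP-high gene (*Sfrp2*). RefSeq's promoter table (GRCm38.p6) held entries for 5 of the 10 genes, *Sost*, *Dkk1*, *Sfrp2*, *Frzb* and *Wif1*, and only bases that lie before both the RefSeq and the GENCODE start were used, which left 250 for *Sost* (chr11:101967016-101967265, minus strand), 81 for *Dkk1* (chr19:30549666-30549746, minus strand) and 250 for *Sfrp2* (chr3:83766071-83766320, plus strand). Capitals mark a match.
Sost: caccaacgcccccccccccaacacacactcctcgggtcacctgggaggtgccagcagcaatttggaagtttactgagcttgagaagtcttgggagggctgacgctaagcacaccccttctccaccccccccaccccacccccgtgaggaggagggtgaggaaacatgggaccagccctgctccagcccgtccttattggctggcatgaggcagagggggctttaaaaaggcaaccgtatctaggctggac
Dkk1: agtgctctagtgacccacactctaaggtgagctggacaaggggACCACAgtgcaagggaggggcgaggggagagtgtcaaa
Sfrp2: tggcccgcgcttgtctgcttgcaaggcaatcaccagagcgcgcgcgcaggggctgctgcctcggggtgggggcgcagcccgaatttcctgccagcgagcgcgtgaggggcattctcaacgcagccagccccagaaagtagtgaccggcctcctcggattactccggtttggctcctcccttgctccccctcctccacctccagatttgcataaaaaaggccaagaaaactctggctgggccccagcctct
The motifs searched on both strands were CTTTGA, the core bound by TCF/LEF factors that act with β-catenin (reverse TCAAAG), and TGTGGT, the core bound by RUNX factors (reverse ACCACA). The single match was a reverse RUNX core at position 44 of the *Dkk1* bases, counted from the 5′ end, and neither motif occurred in the bases shown for *Sost* and *Sfrp2* or in the 206 of *Wif1*. Among 32851 promoters, windows of 250 bases held the TCF/LEF core in 13.8% and the RUNX core in 14.0%, and windows of 81 bases in 5.06% and 4.83%. These are matches of letters and show no binding.

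*Dkk1* (ENSMUSG00000024868, chr19:30545863-30549665, minus strand) was highest in Ocy and OB1, as *Sost* was, and was also present in OBP. In Ocy its level ran from 0.254 in pool 11 over 0.386 to 0.646 in pool 17, with a mean of 0.404 ± 0.135 (SD, n = 16). In OB1 it ran from 0.103 in pool 18 over 0.286 to 0.666 in pool 17, with a mean of 0.310 ± 0.177 (SD, n = 16). Ocy was the higher gate in 11 of 16 pools, by 0.53 ± 0.75 (SD) on the log2 scale (exact permutation, adjusted p = 0.0136). This call was lost with TMM-scaled levels (0.39, adjusted p = 0.0554) and without pairing the pools (adjusted p = 0.0518), and both gates overlapped. OB2 followed with 0.227 ± 0.141 (SD, n = 14) and OBP with 0.113 ± 0.062 (SD, n = 16). In this order, set by the means of the same pools, all 4 gates differed from their neighbors (adjusted p between 0.0222 and 0.0425, exact permutation). The edgeR fit described further on called OB2 lower than OB1 (-0.75, adjusted p = 0.00013) but did not call Ocy against OB1 (0.20, adjusted p = 0.354). OBP exceeded MALP in 16 of 16 pools (adjusted p = 0.000218), and the means of MALP (0.0076) and LMP (0.0067) were below the macrophage mean of 0.0191. Pool 13 raised that mean (0.115), and the medians were 0.0054 in MALP, 0.0041 in LMP and 0.0071 in macrophages. The OBP levels ran from 0.0149 in pool 6 to 0.269 in pool 10, and the MALP levels reached 0.0406 in pool 13, so the ranges overlapped although no pool had its MALP level above its OBP level.

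*Frzb* (ENSMUSG00000027004, chr2:80411970-80447625, minus strand) had the pattern most like *Dkk1* among these genes. Its level in Ocy ran from 0.0969 in pool 6 over 0.389 to 0.868 in pool 11, with a mean of 0.390 ± 0.194 (SD, n = 16). In OB1 it ran from 0.0388 in pool 2 over 0.206 to 0.373 in pool 11, with a mean of 0.212 ± 0.097 (SD, n = 16). Ocy was higher in 15 of 16 pools by 0.85 ± 0.84 (SD) on the log2 scale (exact permutation, adjusted p = 0.00203). OB2 (0.137) and OBP (0.118) did not differ past the threshold (adjusted p = 0.639), and OBP exceeded LMP (0.0172) in 16 of 16 pools (adjusted p = 0.000218). The levels in LMP and MALP (0.0142) lay near the macrophage level of 0.0131.

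*Wif1* (ENSMUSG00000020218, chr10:121033960-121100650, plus strand) had a mean above the macrophage level in all 6 gates. Its level in OB2 ran from 0.947 in pool 6 over 2.55 to 3.42 in pool 10, with a mean of 2.31 ± 0.78 (SD, n = 14). In Ocy it ran from 1.06 in pool 6 over 1.68 to 2.43 in pool 10, with a mean of 1.70 ± 0.34 (SD, n = 16). OB2 was the higher gate in 11 of 14 pools by 0.34 ± 0.37 (SD) on the log2 scale (exact permutation, adjusted p = 0.00872), and this call was lost without pairing the pools (adjusted p = 0.0635). Ocy and OB1 (1.57) did not differ past the threshold (adjusted p = 0.0843), OB1 exceeded OBP (1.11) in 14 of 16 pools (adjusted p = 0.00356), OBP and MALP (0.943) did not differ past it (adjusted p = 0.186), and MALP exceeded LMP (0.515) in 14 of 16 pools (adjusted p = 0.00356). The lowest mesenchymal mean, in LMP, stood against 0.153 ± 0.135 (SD, n = 16) in macrophages.

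*Sfrp1* (ENSMUSG00000031548, chr8:23411502-23449632, plus strand), which binds Wnt ligands through a Frizzled-like domain, had MALP as its highest gate in every pool. In MALP its level ran from 2.08 in pool 4 over 3.89 to 8.73 in pool 6, with a mean of 4.08 ± 1.70 (SD, n = 16). In LMP it ran from 0.335 in pool 3 over 0.660 to 2.26 in pool 6, with a mean of 0.788 ± 0.502 (SD, n = 16). MALP was higher in 16 of 16 pools by 2.45 ± 0.44 (SD) on the log2 scale, a fold of 5.47 (exact permutation, p = 3.05e-05, the smallest that 16 pairs allow, adjusted p = 0.000153). LMP in turn exceeded OB2 (0.281) in 13 of 14 pools (adjusted p = 0.002), and the OB2 mean lay above the median of 0.0637 because of a few pools, with 1.60 in pool 6 and 1.016 in pool 18. OBP (0.0999) exceeded OB1 (0.0592) in 15 of 16 pools (adjusted p = 0.000381, exact permutation), though the edgeR fit did not call it (-0.65, adjusted p = 0.0584), and OB1 and Ocy (0.0481) did not differ past the threshold (adjusted p = 0.183). The macrophage mean was 0.0845, so by level OB1 and Ocy cannot be told from background, and the OBP level was near it. At unequal depth, 16.6% of OBP, 8.68% of OB1 and 6.83% of Ocy cells had a UMI, against 2.90% of macrophages. Which measure fits free RNA better was not tested.

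*Sfrp4* (ENSMUSG00000021319, chr13:19623104-19632994, plus strand) was also highest in MALP. It ran there from 0.185 in pool 11 over 0.474 to 1.23 in pool 6, with a mean of 0.522 ± 0.285 (SD, n = 16), and in LMP from 0.0501 in pool 3 over 0.127 to 0.286 in pool 6, with a mean of 0.140 ± 0.072 (SD, n = 16). MALP was higher in 16 of 16 pools by 1.80 ± 0.78 (SD) on the log2 scale (exact permutation, p = 3.05e-05, adjusted p = 0.000153), although the 2 ranges overlapped between pools. LMP exceeded OBP (0.0868) in 16 of 16 pools (adjusted p = 0.000218), but the edgeR fit with TMM scaling described further on did not call this difference (-0.27, adjusted p = 0.138), while with total counts it did (-0.60, adjusted p = 0.000854). The 4 gates OBP, OB1 (0.0854), OB2 (0.0722) and Ocy (0.0708) did not differ from their neighbors past the threshold, and stood above the 0.0168 of macrophages.

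*Sfrp2* (ENSMUSG00000027996, chr3:83766321-83774316, plus strand) was highest in LMP, but its second source changed from pool to pool. In LMP its level ran from 1.22 in pool 17 over 2.49 to 4.76 in pool 10, with a mean of 2.60 ± 1.00 (SD, n = 16). In OB1 it ran from 0.218 in pool 10 over 1.06 to 4.75 in pool 6, with a mean of 1.23 ± 1.12 (SD, n = 16). LMP was higher in 14 of 16 pools by 1.41 ± 1.48 (SD) on the log2 scale (exact permutation, adjusted p = 0.00203), and the exceptions were pool 6 (3.32 in LMP, 4.75 in OB1) and pool 17 (1.22 in LMP, 2.63 in OB1). In pool 18, OB2 (2.80) was above LMP (2.51), so LMP was the highest of all gates in 13 of 16 pools. OB1, OB2 (1.06), OBP (0.898) and MALP (0.726) did not differ from their neighbors past the threshold, each with a wide range. MALP exceeded Ocy in 16 of 16 pools (adjusted p = 0.000218), and the Ocy mean of 0.123 ± 0.105 (SD, n = 16) was under the macrophage level of 0.148. *Sfrp2* overlaps *Gm26771* on the opposite strand, and whether strand was used in counting is not given in the sources used here, so UMIs of both may be mixed.

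*Dkk3* (ENSMUSG00000030772, chr7:112116017-112159057, minus strand) and *Kremen1* (ENSMUSG00000020393, chr11:5191552-5261558, minus strand) shared LMP as their source in every pool. *Dkk3* in LMP ran from 0.676 in pool 1 over 0.985 to 1.47 in pool 18, with a mean of 1.01 ± 0.23 (SD, n = 16), and in OB2, the second gate, from 0.179 in pool 4 over 0.339 to 0.845 in pool 14, with a mean of 0.405 ± 0.204 (SD, n = 14). LMP was higher in 14 of 14 pools by 1.46 ± 0.57 (SD) on the log2 scale (exact permutation, adjusted p = 0.000305). *Kremen1* in LMP ran from 0.591 in pool 8 over 0.737 to 0.953 in pool 6, with a mean of 0.742 ± 0.119 (SD, n = 16), and in OB2 from 0.143 in pool 7 over 0.183 to 0.642 in pool 14, with a mean of 0.253 ± 0.166 (SD, n = 14). OB2 was second by its mean, but it was above MALP (0.233) only in pools 6, 14 and 18, that is in 3 of 14 pools, and those 2 gates did not differ past the threshold (adjusted p = 0.728). LMP was higher than OB2 in 14 of 14 pools by 1.71 ± 0.63 (SD) on the log2 scale (exact permutation, adjusted p = 0.000305). For both genes the OB2 cells that stood nearest to LMP by their second score had the most, 0.609 ± 0.251 for *Dkk3* and 0.540 ± 0.172 for *Kremen1* (SD, n = 12 pools), against 0.162 ± 0.055 and 0.105 ± 0.030 (SD, n = 10) where the second score was OB1, again as a description. *Kremen1* in OB1 (0.0984) and Ocy (0.117) was at or under the macrophage level of 0.120, whereas *Dkk3* was above its macrophage level of 0.0606 in all 6 gates. *Kremen1* overlaps *Gm25142* on the opposite strand.

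*Lrp4* (ENSMUSG00000027253, chr2:91457511-91513779, plus strand) had no gate that passed the test as its main source, although MALP was the highest gate in 10 of 16 pools. Its mean levels were 0.344 ± 0.096 in MALP, 0.310 ± 0.200 in OB1, 0.275 ± 0.083 in OBP, 0.267 ± 0.060 in LMP and 0.251 ± 0.130 in Ocy (SD, n = 16 each) and 0.219 ± 0.061 in OB2 (SD, n = 14), against 0.0473 ± 0.0191 in macrophages (SD, n = 16). None of the 5 neighbor pairs in this order passed the test, with adjusted p between 0.119 and 0.805 (exact permutation). The difference of the first pair, MALP against OB1, was 0.27 ± 0.54 (SD) on the log2 scale, and it turned to OB1 in the levels scaled by TMM (-0.46, higher in MALP in 3 of 16 pools, adjusted p = 0.00519). Only neighbors in the order were tested here, and the edgeR fit described further on called *Lrp4* in 4 of its 5 comparisons, with OB2 and Ocy each lower than OB1. The pool with the highest level was pool 2 in 5 of the gates. Over all genes, 26 of the 50 neighbor pairs passed. All 50 used levels scaled by total UMIs, and pairs below each gene's first were not retested with TMM. TMM factors averaged 1.38 in MALP, 1.18 in LMP, 0.933 in OBP and 0.817 in OB1. With levels scaled by TMM, *Wif1* had means of 1.20 in OBP and 0.683 in MALP, and *Kremen1* 0.278 in OB2 and 0.169 in MALP. *Lrp4* means were then 0.374 in OB1, 0.295 in OBP, 0.275 in Ocy and 0.250 in MALP.

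The level of a gate does not say how much of a gene's RNA it holds, because gates differ in cell number and in UMIs per cell. Over the 16 pools, LMP made up 25.4% ± 9.6 of the gated mesenchymal cells, MALP 22.2% ± 11.6, OBP 17.9% ± 9.2, OB1 13.5% ± 9.5, OB2 11.8% ± 7.2 and Ocy 9.18% ± 3.25 (SD, n = 16). The shares of UMIs that follow are of a gene's UMIs in the 6 gates, leaving out cells of no gate. OB1 and Ocy together held most of the gated *Sost*, with 52.0% ± 25.6 and 34.3% ± 18.5 of its gated UMIs (SD, n = 16), and OB1 held between 3.64% and 90.1% in single pools. Of the gated UMIs, LMP held 61.0% ± 10.9 of *Kremen1*, 57.6% ± 13.1 of *Dkk3* and 53.6% ± 18.6 of *Sfrp2* (SD, n = 16), and MALP held 64.5% ± 10.4 of *Sfrp1* and 42.5% ± 19.0 of *Sfrp4* (SD, n = 16). For *Dkk1*, *Frzb* and *Wif1* the gated UMIs were divided. *Dkk1* had 30.8% ± 20.9 in OB1, 27.5% ± 9.7 in Ocy and 21.4% ± 14.2 in OBP, and *Frzb* had 29.96% ± 11.7 in Ocy, 25.4% ± 13.8 in OBP and 25.2% ± 18.8 in OB1 (SD, n = 16). *Wif1* had 23.1% ± 13.2 in OBP and 22.4% ± 13.8 in OB2, and *Lrp4* had its largest share in LMP, 27.8% ± 7.7, about that gate's share of cells (SD, n = 16). All 6 gates together held between 55.003% (*Lrp4*) and 65.8% (*Sfrp1*) of each gene's UMIs in kept droplets, and stromal cells that no score put in a gate held between 14.8% (*Sfrp1*) and 32.5% (*Dkk1*).

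**Figure D2:**
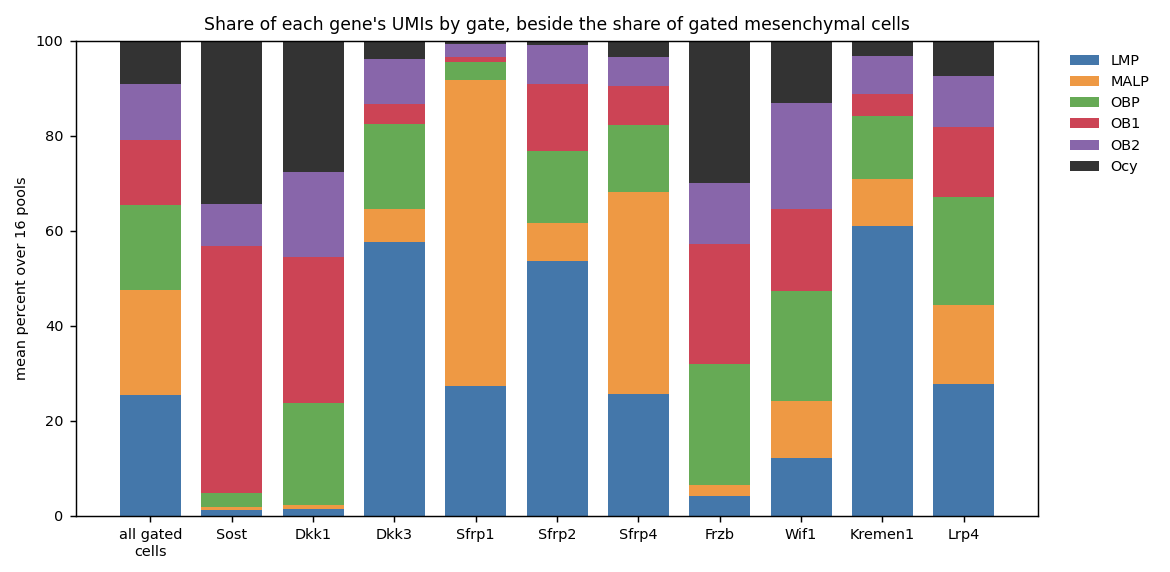
Mean percent over 16 pools (vertical axis) of each gene's UMIs in gated mesenchymal cells that lay in each of the 6 gates (colors), beside the percent of gated cells in the first bar. OB1 and Ocy fill most of the *Sost* bar, LMP more than any other gate in the *Dkk3*, *Sfrp2* and *Kremen1* bars, and the *Lrp4* bar resembles that of all gated cells.

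The share of cells with at least 1 UMI depends on depth, and the median UMI count per cell of a gate, taken over pools, was between 9607 in MALP and 20580 in OBP, against 4840.5 in macrophages. The shares were therefore computed as they would be if each cell had 2000 UMIs, leaving out shallower cells, which kept 8364 of 8883 LMP, 7020 of 7548 MALP, 6197 of 6522 OBP, 4368 of 4713 OB1, 4087 of 4206 OB2, 3078 of 3266 Ocy and 9423 of 10277 macrophage-gated cells. At that depth *Sost* was seen in 35.8% ± 13.5 of OB1 cells and 26.5% ± 9.4 of Ocy cells, against 1.64% ± 1.64 of macrophages (SD, n = 16 pools). Without thinning, over all cells of these gates, the shares were 53.4%, 40.3% and 3.27%. *Sfrp1* was seen in 39.8% ± 11.3 of MALP and 11.2% ± 4.7 of LMP cells (67.7% and 38.5% without thinning), against 1.20% of macrophages, and *Sfrp2* in 26.6% ± 6.5 of LMP cells (58.2% without thinning), against 2.39% (SD, n = 16). *Wif1* was seen in 30.6% ± 9.0 of OB2 cells (SD, n = 14) and 7.97% of LMP cells, against 2.12% of macrophages. *Dkk3* and *Kremen1* reached 16.7% ± 3.6 and 13.5% ± 2.3 of LMP cells (60.7% and 59.7% without thinning), *Sfrp4* 8.91% ± 4.22 of MALP cells, and *Dkk1* and *Frzb* 6.90% ± 1.69 and 6.26% ± 2.98 of Ocy cells (SD, n = 16). *Lrp4* was between 4.38% in OB2 (n = 14) and 6.60% in MALP (n = 16). In macrophages *Kremen1* was seen in 2.26% of cells, and *Dkk3*, *Sfrp4*, *Dkk1*, *Frzb* and *Lrp4* in 0.967% or less. Without thinning, some genes near or under the macrophage level were seen in more cells than in macrophages. Examples were *Kremen1* in OB1 (15.2% against 6.28%), *Sfrp2* in Ocy (11.3% against 5.67%), *Frzb* in LMP (2.71% against 0.564%) and *Sost* in OBP (6.38% against 3.27%). Thinned to 2000 UMIs, these were 2.29% against 2.26%, 2.70% against 2.39%, 0.3365% against 0.210% and 1.52% against 1.64%.

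*Sost* and *Dkk1* UMIs were also found in the same cells. Among OB1 cells with at least 4000 UMIs (3835 cells, 16 pools), 58.4% had a *Sost* UMI, 23.0% a *Dkk1* UMI and 16.1% ± 7.8 both (SD, n = 16), where the product of the 2 shares averaged 13.7%. For Ocy cells (2860 cells) the shares were 42.9% and 26.7%, with 12.6% ± 5.6 having both and a product of 11.7%. *Dkk1* and *Frzb* were both seen in 5.00% of OB1 cells (product 5.25%) and 8.37% of Ocy cells (8.09%). *Sost* and *Frzb* were both seen in 14.6% of OB1 cells (product 13.6%) and 12.4% of Ocy cells (12.6%). Whether a joint share differs from its product was not tested. Cells were not thinned here, and the part of their unequal depth in the joint shares was not tested.

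**Figure D3:**
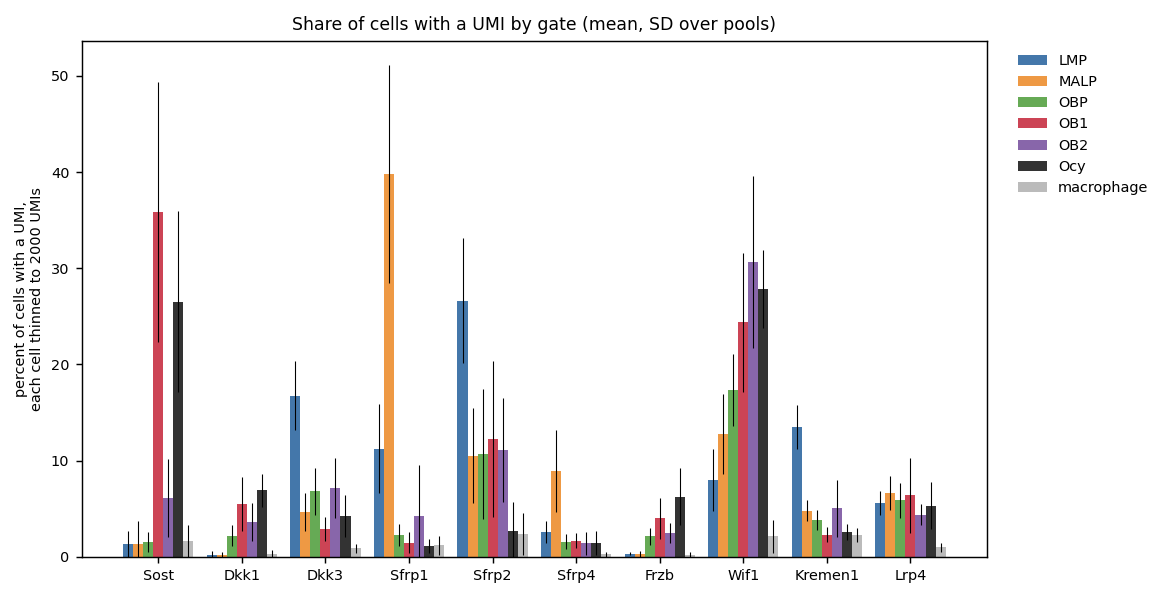
Percent of cells with at least 1 UMI of each gene (vertical axis) in the 6 mesenchymal gates and in macrophages, with each cell thinned to 2000 UMIs, as bars for the mean and lines for the SD over pools. *Sfrp1* in MALP (39.8%) and *Sost* in OB1 (35.8%) reach the highest shares, while macrophages stay at 2.39% or less.

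To compare neighboring cell types across all genes, counts were summed per pool and gate and tested in a single edgeR quasi-likelihood fit of the 6 gates with the pool as a block, over 12070 genes. All 10 genes passed the filter on low counts. Many genes differed between the gates, which were made from markers of the same cells, and the part of the gating in this was not tested. Against LMP, OBP cells had 35.7% of the tested genes called higher and 36.9% called lower at an adjusted p of 0.05, and of the 10 genes 5 were higher and 4 lower. *Dkk1* was higher by 4.46 ± 0.25 (SE) on the log2 scale (edgeR adjusted p = 4.64e-28), *Frzb* by 3.15 ± 0.18 (adjusted p = 2.89e-27) and *Wif1* by 1.49 ± 0.15 (adjusted p = 1.69e-14). The LMP levels of *Dkk1* and *Frzb* were near those of macrophages, so the sizes of their differences depend on background. *Sfrp1* was lower (-2.50 ± 0.22, adjusted p = 1.07e-17), as were *Kremen1* (-1.59 ± 0.09, adjusted p = 7.78e-27), *Sfrp2* (-1.35 ± 0.26) and *Dkk3*, and *Sfrp4* did not pass. *Sost* was also called higher (1.68 ± 0.34), at levels near that of macrophages, and the call of *Lrp4* (0.35) was lost when libraries were scaled by total counts (0.02). The median over the 10 genes was 0.04, against -0.01 over all genes.

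In MALP against LMP, 35.3% of the tested genes were called higher and 35.1% lower, and of the 10 genes 3 were higher and 3 lower. *Sfrp1* (2.24 ± 0.19, adjusted p = 3.22e-18), *Sfrp4* (1.70 ± 0.15, adjusted p = 4.38e-17) and *Wif1* (0.66 ± 0.15, adjusted p = 9.57e-05) were higher. *Dkk3* (-2.41 ± 0.15, adjusted p = 7.08e-25), *Sfrp2* (-2.03 ± 0.26, adjusted p = 1.15e-10) and *Kremen1* (-1.91 ± 0.10, adjusted p = 7.34e-31) were lower. *Sost*, *Dkk1*, *Frzb* and *Lrp4* did not pass, and the first 3 of these were near background in both gates. In OB1 against OBP, 27.1% of the tested genes were called higher and 25.8% lower, and of the 10 genes 6 were higher and 2 lower. *Sost* was higher by 5.69 ± 0.31 (adjusted p = 3.51e-27), and since its OBP level was near that of macrophages the size of this difference depends on background. *Dkk1* (1.72 ± 0.17, adjusted p = 5.21e-14) and *Frzb* (1.08 ± 0.15, adjusted p = 5.26e-09) were higher too, and *Dkk3* (-1.25 ± 0.17) and *Kremen1* (-0.81 ± 0.12) were lower. The OB1 level of *Kremen1* was under that of macrophages, so the size of its difference depends on background. The calls of *Sfrp2* (0.72, adjusted p = 0.0152) and *Lrp4* (0.32, adjusted p = 0.00753) were lost with total-count scaling, and that of *Sfrp2* also with whole-profile gates.

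Between OB2 and OB1, 29.3% of the tested genes were called higher in OB2 and 33.2% lower, and of the 10 genes 4 were higher and 4 lower. *Sost* was lower by a fold of 9.65 (-3.27 ± 0.29, adjusted p = 1.96e-16), with *Frzb* (-0.9995 ± 0.164, adjusted p = 1.64e-07), *Dkk1* (-0.75 ± 0.18, adjusted p = 0.00013) and *Lrp4* (-0.46 ± 0.12) also lower. *Sfrp1* (1.47 ± 0.30), *Dkk3* (1.28 ± 0.18), *Kremen1* (1.04 ± 0.12) and *Wif1* (0.39 ± 0.16, adjusted p = 0.0235) were higher. The OB2 levels of *Sfrp1* stood far above those of OB1 in pools 5, 6, 14 and 18 (0.340, 1.60, 0.355 and 1.016 in OB2), with medians over pools of 0.0637 and 0.0559. As a description, OB2 cells whose second score was LMP had 0.476 ± 0.610 for *Sfrp1* (SD, n = 12 pools). Those whose second score was OB1 had 0.041 ± 0.029 (SD, n = 10). *Dkk3* and *Kremen1* were also higher in the former, as given above, whereas *Wif1* was not (2.40 and 2.81). The part of LMP-like cells in the OB2 gate in these calls was not tested. The OB1 levels of *Sfrp1* and *Kremen1* were under those of macrophages, so the sizes of both differences depend on background. The whole-profile gates turned the sign of *Dkk1* (0.21) and ended the calls of *Dkk1* and *Sfrp1* (0.24). The call of *Dkk1* was also lost without the block (adjusted p = 0.0748), and that of *Wif1* with a wider margin (adjusted p = 0.0559) and in the second run (adjusted p = 0.0684). Between Ocy and OB1, 19.9% of the tested genes were called higher in Ocy and 22.8% lower, and of the 10 genes 2 were higher and 3 lower. *Sfrp2* was lower (-3.51 ± 0.33, adjusted p = 3.46e-15), with an Ocy level under that of macrophages, so that the size depends on background, *Frzb* was higher (0.69 ± 0.15, adjusted p = 7.21e-05), *Dkk3* higher (0.51 ± 0.19, adjusted p = 0.0234), and *Lrp4* (-0.46 ± 0.11) and *Sfrp4* (-0.55 ± 0.23) lower. The calls of *Dkk3* and *Sfrp4* were lost without the pool as a block (adjusted p = 0.0512 and 0.149), that of *Dkk3* also with whole-profile gates and that of *Sfrp4* with total counts. *Sost* (-0.44 ± 0.24, adjusted p = 0.144) and *Dkk1* (0.20 ± 0.17, adjusted p = 0.354) did not pass. The genes differ in direction in each comparison, and nothing is read from the counts about the 10 genes as a group.

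The split of the calls depends on scaling. Under TMM, the called genes that were higher made up 49.2% for OBP against LMP, 50.2% for MALP against LMP, 51.2% for OB1 against OBP, 46.9% for OB2 against OB1 and 46.7% for Ocy against OB1. With total counts the same shares were 23.0%, 72.6%, 24.8%, 61.8% and 72.6%, and the median of all genes moved by -0.33, 0.23, -0.19, 0.13 and 0.14 on the log2 scale. None of the calls named above with an adjusted p under 0.0001 turned its direction with that scaling.

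**Figure D4:**
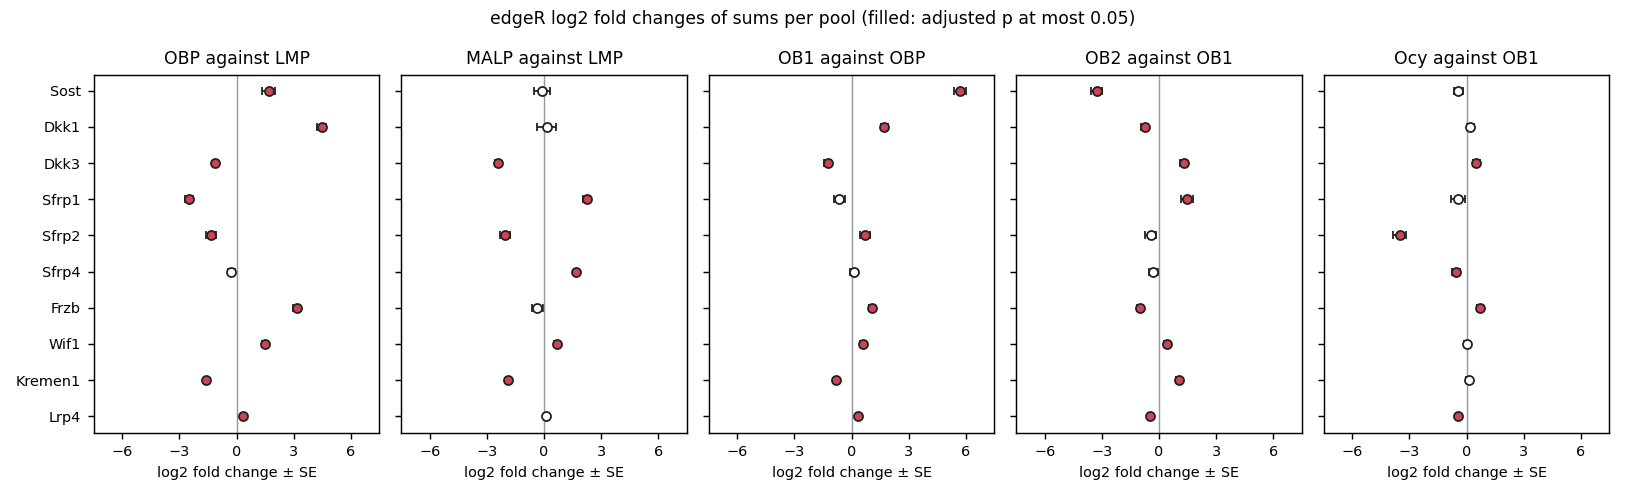
edgeR log2 fold changes of the 10 genes (horizontal axes, points with SE bars) in the 5 comparisons of neighboring gates, with filled points for an adjusted p of at most 0.05. *Sost* lies at 5.69 in OB1 against OBP and at -3.27 in OB2 against OB1, and *Dkk1* and *Frzb* at 4.46 and 3.15 in OBP against LMP.

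Other genes of the Wnt pathway were taken from a list of 67 (other antagonists, ligands, receptors, R-spondins, and genes of signal transduction or its readout), of which 43 were tested. Of these, 17 were higher and 22 lower in OBP against LMP, 16 and 18 in MALP against LMP, 16 and 12 in OB1 against OBP, 15 and 13 in OB2 against OB1, and 11 and 13 in Ocy against OB1. These counts stand beside the percents of all tested genes given above for each comparison, such as 35.7% higher and 36.9% lower in OBP against LMP, and no more is read from them. The median log2 difference of the list was -0.16, -0.04, 0.07, 0.08 and -0.14 in this order of comparisons, against -0.01, 0.01, 0.01, -0.03 and -0.01 over all genes. The 2 largest differences among the called genes of the list are named for each comparison. In OBP against LMP they were those of the R-spondins *Rspo2* (-4.55 ± 0.21, SE) and *Rspo3* (-3.80 ± 0.21), secreted amplifiers of Wnt signaling. In MALP against LMP they were those of the receptor *Fzd4* (4.18 ± 0.13) and the ligand *Wnt10b* (-3.61 ± 0.23). In OB1 against OBP they were those of the R-spondin receptor *Lgr6* (2.04 ± 0.21) and the transcription factor *Tcf7* (-1.43 ± 0.14), in OB2 against OB1 those of *Fzd7* (2.11 ± 0.15) and *Wnt5a* (2.04 ± 0.18), and in Ocy against OB1 those of *Wnt5b* (2.59 ± 0.18) and *Wnt4* (-2.09 ± 0.23). All 10 were picked from called genes, so that they passed the edgeR test was fixed by the choice. Their adjusted p was at most 1.35e-12. MALP cells, the highest gate of *Sfrp1*, also held *Wnt4* at 2.11 ± 0.66 and *Rspo3* at 1.95 ± 0.53 UMIs per 10000 (SD, n = 16), and Ocy cells, with *Sost*, *Dkk1* and *Frzb*, held *Lgr6* at 0.814 ± 0.158 and *Wnt5b* at 0.172 ± 0.073 (SD, n = 16).

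The pools, which hold different mice, differed several-fold in most of these genes. Whether a pool high in 1 gate was also high in the next was tested for the 2 gates of highest level of each gene, which gave 10 relations of log2 levels over pools. *Sfrp1* in MALP and LMP had a Pearson's r of 0.81 (permutation p = 7e-05, adjusted p = 0.0007) and a Spearman's rho of 0.80 (adjusted p = 0.0029), over 16 pools, and r was 0.69 without the 2 pools farthest from the median. *Wif1* in OB2 and Ocy had r = 0.78 (permutation p = 0.0011, adjusted p = 0.0036) and rho = 0.71 (adjusted p = 0.028) over 14 pools, and r was 0.64 without the 2 farthest pools. *Sost* in OB1 and Ocy had r = 0.78 (permutation p = 0.001, adjusted p = 0.0036) and rho = 0.59 (adjusted p = 0.042) over 16 pools, but r fell to 0.37 without pools 2 and 10, so that relation rested on these 2 pools, which had the lowest Ocy (pool 2) and OB1 (pool 10) levels. Pool 10 had 26 OB1 cells. *Lrp4* in MALP and OB1 had r = 0.57 (permutation p = 0.02, adjusted p = 0.05) and rho = 0.60 (adjusted p = 0.042). The remaining 6 genes did not pass the adjustment, and *Sfrp2* in LMP and OB1 was the only one with a negative r (-0.51, adjusted p = 0.085). Without pool 13, r was 0.79 for *Sfrp1*, 0.78 for *Wif1* and 0.78 for *Sost*. Both gates of a pool come from the same droplet library, so free RNA and depth are shared, and their part in these relations was not tested.

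**Figure D5:**
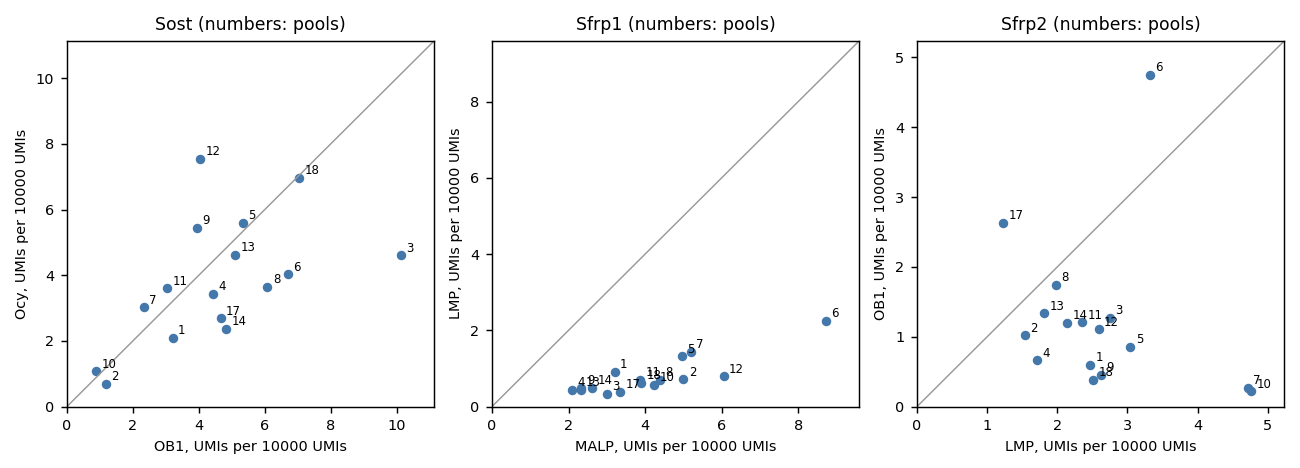
Levels of *Sost*, *Sfrp1* and *Sfrp2* in the 2 gates of highest level (axes, UMIs per 10000 UMIs), with 1 numbered point for each pool and a line of equal levels. *Sost* points lie on both sides of the line, all *Sfrp1* points lie on the MALP side, and *Sfrp2* crosses to the OB1 side in pools 6 and 17.

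Likeness of pattern was measured as Pearson's r of log2 scaled counts (TMM) over the 94 sums of a pool and a gate, which share libraries, so the values are a description without a test. Among the 10 genes, *Dkk1* and *Frzb* were most alike (0.91), followed by *Dkk1* and *Wif1* (0.86), *Sost* and *Dkk1* (0.84), *Sost* and *Frzb* (0.80), *Frzb* and *Wif1* (0.78), *Dkk3* and *Kremen1* (0.74) and *Sfrp1* and *Sfrp4* (0.70). Among other genes that were no gate markers, those nearest to *Sost* were *Skil*, *Bcl2l11* and *Mafk* (0.92, 0.92 and 0.91), to *Dkk1* *Col11a2*, *Amhr2* and *Tanc2* (0.95, 0.95 and 0.94), to *Frzb* *Pcsk6*, *Msi2* and *Inafm2* (0.95 each), and to *Wif1* *Gtf2i*, *Insig2* and *Fam214a* (0.91, 0.89 and 0.89). To *Sfrp1* they were *Ms4a4d*, *Fstl1*, itself used as a stromal marker, and *Gpm6b* (0.95, 0.95 and 0.94), and to *Sfrp4* *Epdr1*, *Nudt4* and *Nfib* (0.81, 0.77 and 0.77). *Itm2a* was nearest to both *Dkk3* (0.82) and *Kremen1* (0.84), followed by *Mrgprf* and *Fbln2* for *Dkk3* (0.81 and 0.79) and *Vim* and *Col6a2* for *Kremen1* (0.83 and 0.82). The gene nearest to *Sfrp2* was its antisense partner *Gm26771* (0.78), followed by *Slc44a2* and *Fzd5* (0.76 and 0.75). *Lrp4* had no close match, with *Eif3j1*, *Hnrnph1* and *Ppm1g* at 0.61, 0.59 and 0.58.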

How the data were processed

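Single-cell libraries of 16 pools (10x Genomics 3' chemistry) were sequenced in 2 runs, giving 32 samples. Per the labels and the study's methods, the authors made the deposited UMI counts with Cell Ranger 5.0.0 on mm10, for filtered barcodes. The runs re-sequenced the same droplets (105910 of 107853 barcodes occurred in both), so run HHFFMCCX2 served only as an alternative. Total counts per pool were 53990642 to 100777353 UMIs. Cells with 400 to 6200 genes, under 10% mitochondrial, 20% *Rpl* and 15% *Rps* counts were kept, doublets were called by similarity to simulated doublets and removed, and cells of at least 1000 UMIs were gated by marker scores (margin 0.3). The gate thresholds were set after marker scores had been seen. The 10 genes and all gene lists were chosen with earlier results of these data known.

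Sums per pool and gate (at least 20 cells) were tested with edgeR 4.0.16 (R 4.3.3, quasi-likelihood, filterByExpr, TMM, pool as block, Benjamini-Hochberg). Paired levels were tested with exact two-sided permutation of signs, which allows p no lower than 3.05e-05 with 16 pools and 0.000122 with 14. Pairing follows from the design, since all gates of a pool are the same library, and deviations from the gate means correlated within pools (median r of 0.23 to 0.49 across the 5 comparisons). On simulated counts, edgeR recovered 93.5% to 98% of 200 genes changed by a log2 of 1, and 3.48% to 6.03% of its calls were false. The simulation had no pool effect and far fewer changed genes than were called in the data, so these shares may not hold there. Pools hold separate mice, and the p-values of differences between gates measure how these differences varied over pools. They do not measure the spread between the mice of a pool. Genes named beside the 10 were the 2 of the Wnt list with the largest differences among those called per comparison and the 3 most correlated with each gene. Alternatives covered the block, scaling, DESeq2 1.42.0, the filter, pool 13, gating, doublets, run, cell number, depth and pseudocount.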

Additional observations from a re-analysis of the deposited data

How the results depend on the processing

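Of 100 recomputed differences between a gene's highest and second gate, 90 kept their direction and their side of the threshold. For *Sost* the difference of OB1 over Ocy passed with a wider margin (0.49), in the second run (0.36) and with TMM-scaled levels (0.40, chosen after seeing the data), and turned to -0.11 with gates from whole profiles. For *Lrp4* the difference of MALP over OB1 turned to -0.0265 with a wider margin and -0.46 with TMM-scaled levels, and passed at 0.43 with whole-profile gates. For *Dkk1* it missed the threshold with TMM-scaled levels (0.39). Without the replicate block the differences of *Dkk1* (0.53, adjusted p = 0.0518) and *Wif1* (0.34, adjusted p = 0.0635) missed it too, by permutation of gate labels over pools. The cause was not tested in any of these.

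Of 550 recomputed edgeR values of the 10 genes, 509 kept direction and side, 16 newly passed, 12 no longer passed and 13 turned direction. Those that no longer passed were, with total counts, *Lrp4* in OBP against LMP (adjusted p = 0.872), *Sfrp2* (0.0804) and *Lrp4* (0.273) in OB1 against OBP and *Sfrp4* in Ocy against OB1 (0.14). With whole-profile gates they were *Sfrp2* in OB1 against OBP (0.268), *Sfrp1* in OB2 against OB1 (0.272) and *Dkk3* in Ocy against OB1 (0.962). Without the replicate block they were *Dkk1* in OB2 against OB1 (0.0748) and *Dkk3* (0.0512) and *Sfrp4* (0.149) in Ocy against OB1, and *Wif1* in OB2 against OB1 missed with a wider margin (0.0559) and in the second run (0.0684). In MALP against LMP, *Sost* turned to 0.14 with total counts, 0.11 with whole-profile gates and 0.37 with doublets kept, and *Dkk1* to -0.0512 without the replicate block, -0.17 without pool 13, -0.61 with whole-profile gates and -0.0898 with cells of at least 3000 UMIs. *Sfrp4* in OB1 against OBP turned to -0.0781 with total counts, and *Dkk1* in OB2 against OB1 to 0.21 with whole-profile gates. In Ocy against OB1, *Wif1* turned to -0.0032 without the replicate block, -0.17 with whole-profile gates and -0.0321 in the second run, and *Kremen1* to -0.12 with whole-profile gates. Apart from *Dkk1* in OB2 against OB1, none of these had passed the test. All 55 recomputed counts of called genes were within 1.5 times the reported count, and without the replicate block they were 7857, 7398, 5169, 6749 and 4081 against 8767, 8494, 6389, 7554 and 5148, in the order of the report. All 70 recomputed shares of UMIs moved by less than 1 SD, and 19 of 20 shares of cells with a UMI moved by more, with thinning depth. Shares near the macrophage level cannot be told from background at this depth.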
